A study of Homo sapiens with 6 samples.

Results

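The genes described here encode receptors and initiator proteases of the extrinsic apoptosis pathway: FAS, TNFRSF10A, TNFRSF10B, TNFRSF10D, TNFRSF1A, TNFRSF21, CASP8 and CASP10. They were taken by symbol from the deposited table of raw counts. All 8 had a row among the 16229 genes of that table, and all 8 passed the filter on low counts that left 12604 genes for testing. The 2 caspases of the set, caspase-8 and caspase-10, are initiator caspases. No executioner caspase is among the 8 genes.

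RNA was sequenced from 3 libraries labelled GCA and 3 labelled CON, all of a wild-type colorectal cancer line named MC38 kept for 24 hours with or without GCA. GCA is taken to stand for the glycocholic acid of the series' title, which is a bile acid conjugated to glycine, and the sources used here give no dose. The GCA columns of the tables carry the name fa, which those sources do not explain, and they were assigned by the treatment label. MC38 is known as a mouse line, whereas organism, build and gene symbols are all human in the labels and the table. The name of the line thus disagrees with the other labels, and the identity of the cells was not tested. Nothing in the labels says that replicates were separate cultures, and the p-values therefore cover only the spread between these libraries, which may be technical.

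Death receptors are members of the tumour necrosis factor (TNF) receptor family that carry a death domain in their cytoplasmic tail. When FAS ligand or the ligand TRAIL binds, the receptor gathers the adaptor FADD and the proenzymes of caspase-8 and caspase-10 into a signalling complex, where the caspases activate themselves and then cut the executioner caspases. The protein FLIP, encoded by CFLAR, blocks that step. Several of these receptor genes, FAS and TNFRSF10B among them, are known targets of p53, and TNFRSF10B is also known as a target of the stress factor CHOP.

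Total counts were 19484569 to 20531612 in GCA and 18057453 to 19110987 in CON, and 3 counts, taken as the detection floor, equalled 0.149 to 0.167 CPM (counts scaled to library size with TMM factors), a limit that covers counting error only. Epithelial markers fitted the label in part. EPCAM, KRT8, KRT18 and KRT19 were abundant, with KRT8 at 6994 CPM in GCA and 4957 in CON, and the intestinal factor CDX2 had 36.7 CPM in GCA and 30.8 CPM in CON. LGALS4 was low, at 1.91 CPM in GCA and 2.38 CPM in CON, and VIL1, CDH17, GPA33 and CEACAM5 averaged under 1 CPM in both groups. Markers of other cell types were near 0 for 9 of 11 leukocyte genes, 7 of 10 fibroblast and endothelial genes and 7 of 9 cardiomyocyte genes (mean under 0.5 CPM), PTPRC, CD3E, DCN, LUM, MYH6 and MYH7 among them. Their summed levels were higher in GCA than in CON, at 32.7 to 42.5 against 28.4 to 32.5 CPM for leukocyte, 17.1 to 18.9 against 12.01 to 13.4 CPM for fibroblast and endothelial, and 37.3 to 42.7 against 23.5 to 27.1 CPM for cardiomyocyte markers. A few genes carried these sums: CORO1A (16.3 CPM in GCA and 7.32 in CON) and CD68 (18.3 and 22.3), COL1A1 (15.03 and 11.1), and TNNI3 (38.1 and 23.8 CPM). The part of these sums in the results below was not tested.

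One of the 8 genes rose and 3 fell. TNFRSF21, which encodes death receptor 6, was 1.61-fold higher in GCA, and TNFRSF10A, TNFRSF10B and FAS stood at 0.706, 0.707 and 0.666 of their CON levels. The other 4, TNFRSF10D, TNFRSF1A, CASP8 and CASP10, did not pass the test. The 4 calls (50% of the set) stand against 36.4% of all tested genes, with 1 rise against 18.3% and 3 falls against 18.1%. The median log2 fold change over the 8 genes was -0.25, against -0.04 over all tested genes. The groups did not overlap in 5 of the 8 genes, 1 higher and 4 lower in GCA, against 48.5% of all genes (24.1% higher and 24.3% lower). Without CON 1, the CON library that differed most from the others of its group, 5 of the 8 passed against 52.6% of all genes (25.3% higher and 27.3% lower in GCA). With the replicate number as a block 4 passed against 41% (20% higher and 21% lower).

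The promoters of 1 gene that rose and 1 that fell are shown because TNFRSF21 changed in the opposite direction to FAS. They are the 250 bases before the first start site listed for each gene in the RefSeq promoter table (GRCh38.p14; 3 start sites are listed for FAS), from 5′ to 3′ on the gene's strand, with motif matches in capitals. TNFRSF21 lies on the minus strand at chr6:47309906-47310155 and FAS on the plus strand at chr10:88990548-88990797. The FAS window lies inside the span listed for that gene (88964050 to 89017059), so it is not the sequence before that span. TNFRSF10A and TNFRSF10B, which also fell, had no entry in the promoter table. The fall of FAS passed under 11 of the 19 alternative settings.
TNFRSF21: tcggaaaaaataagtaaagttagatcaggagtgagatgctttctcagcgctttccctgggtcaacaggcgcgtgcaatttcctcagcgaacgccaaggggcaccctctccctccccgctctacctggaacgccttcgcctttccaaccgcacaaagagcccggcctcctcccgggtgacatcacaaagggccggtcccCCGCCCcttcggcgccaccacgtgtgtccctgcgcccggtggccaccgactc
FAS: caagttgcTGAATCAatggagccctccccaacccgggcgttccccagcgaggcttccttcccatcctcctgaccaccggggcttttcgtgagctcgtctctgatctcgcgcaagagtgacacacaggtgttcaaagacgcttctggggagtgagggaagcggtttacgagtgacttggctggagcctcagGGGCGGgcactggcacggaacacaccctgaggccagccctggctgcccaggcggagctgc
Both strands were searched for the GC box GGGCGG, the ETS core CCGGAAG, the NF-kB site, the AP-1 site TGANTCA and the interferon gamma-activated site TTCNNNGAA. The TNFRSF21 window held 1 GC box, which starts 52 bases before the start site, and none of the other motifs. The FAS window held 1 GC box, starting 60 bases before the start site, and 1 AP-1 match, starting 242 bases before it. Of 12797 such windows of genes in the count table, 62.7% held a GC box and 4.45% an AP-1 match. A match describes these letters only. The matches do not overlap each other, and GC content was 62.0% in the TNFRSF21 window and 62.8% in the FAS window.

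Death receptor 6 was the member that rose. TNFRSF21 (chromosome 6, 47231532 to 47309905, GRCh38.p14) had 120, 126 and 127 CPM in GCA 1 to 3, against 71.0, 80.6 and 80.5 CPM in CON 1 to 3. Each GCA library lay well above the highest CON library. The counts behind these levels were 2426, 2474 and 2429 in GCA and 1275, 1546 and 1554 in CON. The log2 fold change was 0.69 ± 0.11 (SE, n = 3 per group; 95% interval 0.44 to 0.93; edgeR adjusted p = 0.000686). The gene passed under each of the 19 alternative settings, with log2 values of 0.62 to 0.73. No 50-base window of its transcripts occurs in a transcript of another gene.

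The receptors for TRAIL are encoded by a gene cluster on chromosome 8. TNFRSF10A (23190452 to 23225102) encodes death receptor 4, TNFRSF10B (23020133 to 23069031) death receptor 5, and TNFRSF10D (23135588 to 23164027) a decoy receptor whose death domain is truncated. Another decoy receptor gene of the cluster, TNFRSF10C, lies between TNFRSF10B and TNFRSF10D.

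TNFRSF10A had 36.8, 30.9 and 30.9 CPM in GCA 1 to 3, against 44.2, 46.1 and 49.2 CPM in CON 1 to 3. All GCA libraries were below all CON libraries, and GCA 1 was the nearest to CON. The gene fell by 0.50 ± 0.12 on the log2 scale (SE; 95% interval -0.76 to -0.24; adjusted p = 0.00682), and it passed under each of the 19 alternative settings (log2 -0.60 to -0.45). Of its 50-base windows 12.4% occur in transcripts of other genes, 5.97% in those of the antisense gene TNFRSF10A-AS1. Because the strand setting of the counting is not given, reads from the antisense gene cannot be told apart from its own.

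TNFRSF10B had 129, 135 and 152 CPM in GCA, against 138, 201 and 249 CPM in CON. CON varied widely, and CON 1 lay inside the range of the GCA libraries, so the groups overlapped. The mean was 138 ± 11.9 CPM in GCA and 196 ± 56.1 CPM in CON (SD, n = 3 each). The log2 fold change was -0.50 ± 0.18 (SE), which passed narrowly (adjusted p = 0.0441). Without CON 1 the gene fell by 0.70 (adjusted p = 0.000179). The call was lost without GCA 1, GCA 2, GCA 3, CON 2 or CON 3, with adjusted p-values of 0.16, 0.134, 0.0877, 0.105 and 0.244. Without CON 3 the log2 value was -0.27. It passed under 8 of the 19 alternatives in all, among them DESeq2 (adjusted p = 0.031), no filter on low counts (0.0259) and the replicate number as a block (0.0167), and missed among others with DESeq2's size factors in edgeR (0.0507) and limma-voom (0.0647).

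DDIT3, which encodes CHOP, was chosen for this comparison after its values were seen. It had 5.06, 8.65 and 9.58 CPM in GCA 1 to 3 and 14.3, 31.7 and 56.9 CPM in CON 1 to 3. In both DDIT3 and TNFRSF10B replicate 1 was the lowest and replicate 3 the highest library of its group. The share of all genes with this order is not given here. CON 1 was the CON library nearest to the GCA range in both genes. Whether 1 gene's level bears on the other was not tested. RHOBTB2, on the opposite strand from TNFRSF10B, shares 67 exonic bases with it in GENCODE 29 (1.3% of the TNFRSF10B exons) and moved the other way, at 45.7 CPM in GCA and 22.2 CPM in CON.

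The decoy gene TNFRSF10D had 39.5, 36.7 and 38.8 CPM in GCA, against 40.3, 46.7 and 44.3 CPM in CON. The GCA libraries were all below the CON libraries, but GCA 1 and CON 1 differed little. The log2 fold change was -0.19 ± 0.11 (SE; 95% interval -0.44 to 0.06; adjusted p = 0.208). It passed without CON 1 (log2 -0.25, adjusted p = 0.0459). TNFRSF10C, also a decoy, had 4.55 ± 0.869 CPM in GCA and 4.56 ± 0.339 CPM in CON (SD; log2 fold change -0.00, 95% interval -0.46 to 0.46; adjusted p = 0.999).

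FAS (chromosome 10, 88964050 to 89017059) was expressed at a low level, with 95, 114 and 94 counts in GCA and 115, 153 and 170 counts in CON. These correspond to 4.71, 5.80 and 4.92 CPM in GCA and 6.40, 7.98 and 8.80 CPM in CON. The groups did not overlap, though GCA 2 and CON 1 were close. FAS fell by 0.59 ± 0.19 on the log2 scale (SE; 95% interval -1.01 to -0.17; adjusted p = 0.0316). The call was lost without GCA 1, GCA 2, GCA 3, CON 2 or CON 3 (adjusted p = 0.0986, 0.0508, 0.112, 0.0975 and 0.146), and not without CON 1 (adjusted p = 0.0044). FAS shares 380 exonic bases (8.93% of its exons) with ACTA2 on the opposite strand, and ACTA2 had 8.33 ± 0.904 CPM in GCA and 10.3 ± 1.53 CPM in CON (SD), so opposite-strand reads cannot be told apart.

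TNFRSF1A (chromosome 12, 6328771 to 6342076) encodes TNF receptor 1, which signals to NF-kB through TRADD and RIPK1 and can lead to cell death. It had 191, 163 and 193 CPM in GCA, against 178, 180 and 203 CPM in CON. The groups overlapped, with GCA 2 below every CON library and CON 3 above every GCA library. The log2 fold change was -0.04 ± 0.12 (SE; 95% interval -0.30 to 0.23; adjusted p = 0.837).

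The initiator caspase genes lie next to each other on chromosome 2, in the order CFLAR (201116164 to 201176687), CASP10 (201183141 to 201229406) and CASP8 (201233463 to 201287711). CASP8 had 18.5, 18.1 and 15.8 CPM in GCA, against 22.6, 21.4 and 20.6 CPM in CON. All GCA libraries lay below all CON libraries. The log2 fold change was -0.30 ± 0.14 (SE; 95% interval -0.59 to -0.01), and it did not pass over all genes (adjusted p = 0.0986). It did not pass under any of the 19 alternatives either (adjusted p from 0.0673 to 0.734).

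CASP10 was the least abundant of the 8 by count, with 67, 71 and 50 counts in GCA and 46, 81 and 64 in CON, or 3.32, 3.61 and 2.62 CPM in GCA and 2.56, 4.22 and 3.31 CPM in CON. CON libraries lay both above and below the GCA libraries. The log2 fold change was -0.08 ± 0.25 (SE), with a 95% interval of -0.63 to 0.46 (adjusted p = 0.823). CFLAR, their neighbour, had 15.3 ± 0.505 CPM in GCA and 18.3 ± 0.535 CPM in CON (SD), with no overlap between groups (log2 fold change -0.25 ± 0.13, SE; adjusted p = 0.153).

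**Figure D1:**
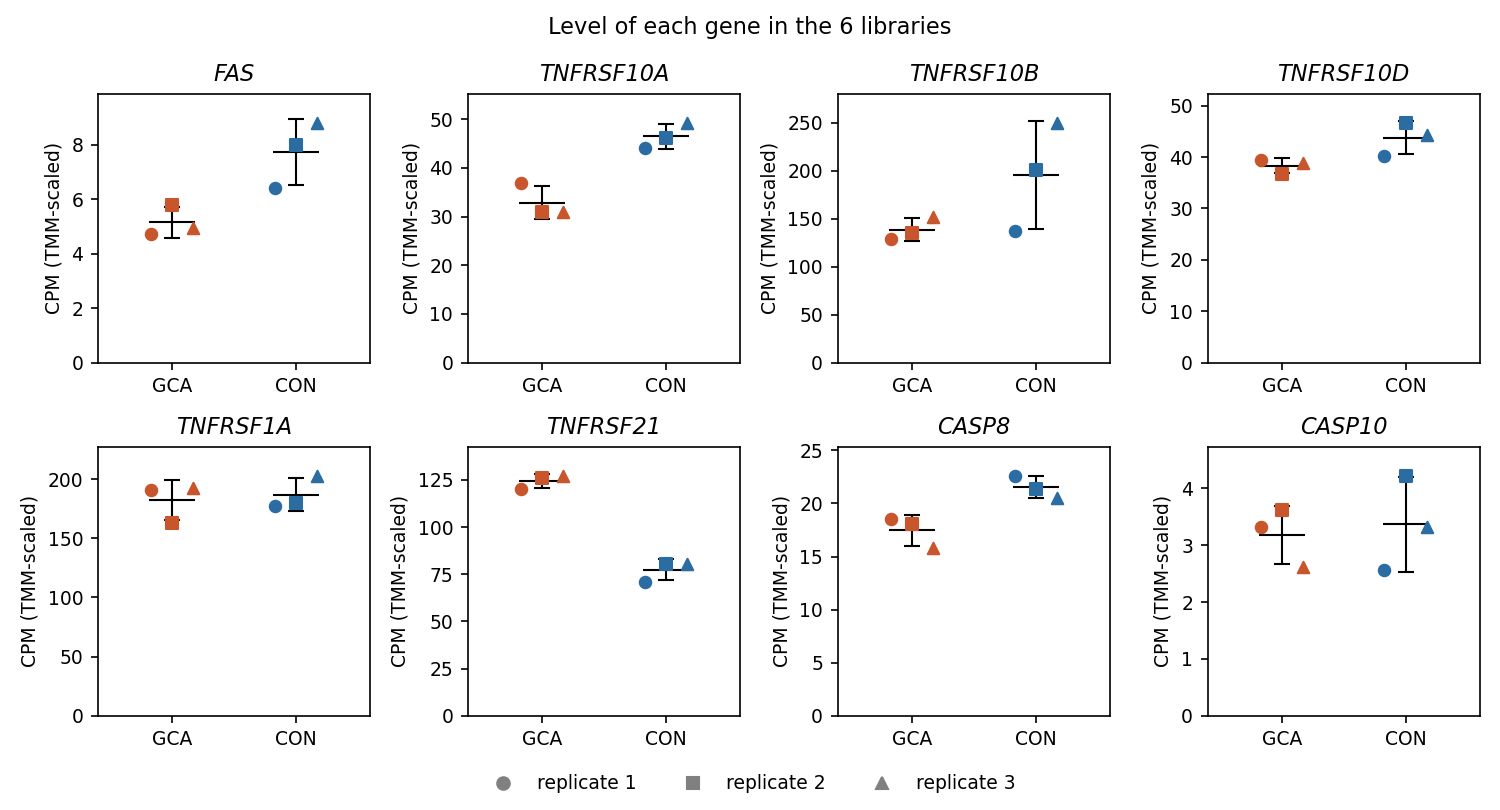
Level of each of the 8 genes in every library, in TMM-scaled CPM (y axes start at 0), for GCA (left) and CON (right); points are libraries, bars the mean and SD of 3. TNFRSF21 is higher in each GCA library, TNFRSF10A is lower in each, and CON 1 of TNFRSF10B (138 CPM) sits among the GCA libraries.

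Levels of different genes were compared per length, with the deposited FPKM values (counts scaled to gene length and library size). TNFRSF1A was highest in both groups, at 78.3 ± 6.87 FPKM in GCA and 83.2 ± 10.03 FPKM in CON (SD, n = 3 each). It was followed by TNFRSF10B (34.1 in GCA and 50.3 FPKM in CON), TNFRSF21 (32.8 and 21.1), TNFRSF10A (12.02 and 17.6), TNFRSF10D (10.7 and 12.6) and CASP8 (5.71 and 7.26 FPKM). FAS and CASP10 came last, with FAS at 0.633 FPKM in GCA and 0.987 FPKM in CON, and CASP10 at 0.469 and 0.517 FPKM.

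Neighbours in that order had separate ranges in each group, with 2 exceptions seen in 1 group each. TNFRSF10B and TNFRSF21 overlapped in GCA, at 31.6 to 37.2 FPKM against 31.7 to 33.4 FPKM, but not in CON, at 32.3 to 65.4 against 17.9 to 22.9 FPKM. TNFRSF21 and TNFRSF10A overlapped in CON, at 17.9 to 22.9 against 15.4 to 19.2 FPKM, but not in GCA, at 31.7 to 33.4 against 11.2 to 13.4 FPKM. The order depends on the gene lengths. The FPKM table implies 8010 bases for FAS and 3010 for CASP8, while the exons of GENCODE 29 cover 4253 and 7243 bases. With the GENCODE lengths the order in CON stayed as it was, and in GCA TNFRSF21 (34.1 FPKM) came before TNFRSF10B (26.4 FPKM). The ranges of TNFRSF10A and TNFRSF10D then overlapped in GCA, and those of TNFRSF1A and TNFRSF10B in CON.

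**Figure D2:**
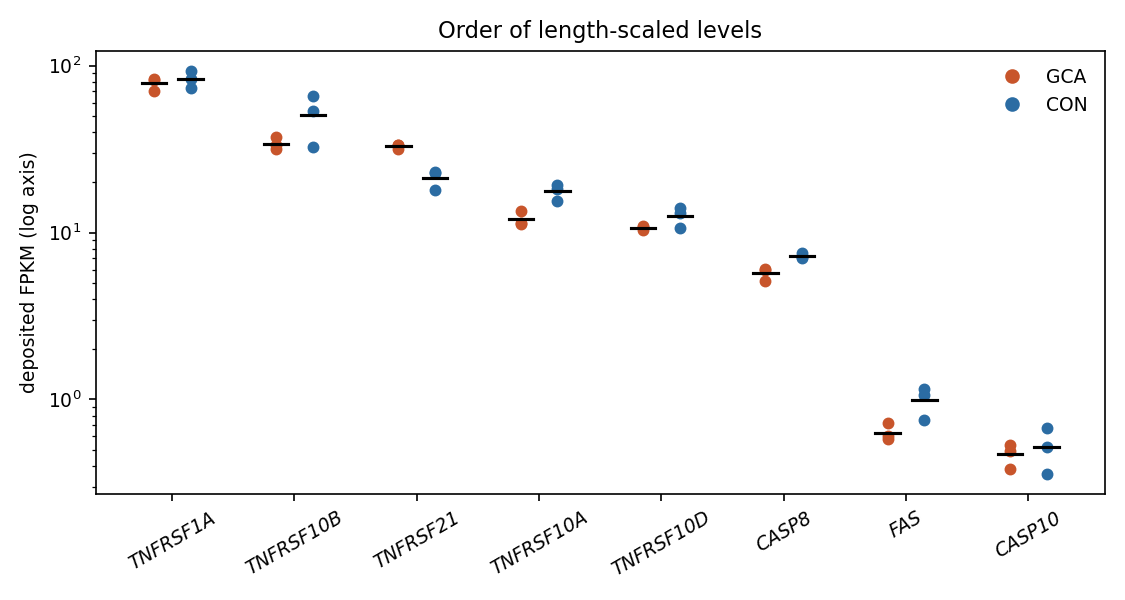
Deposited FPKM of each gene on a log axis, ordered by the CON mean, with GCA libraries left and CON libraries right of each tick and the mean as a line. TNFRSF1A leads in both groups, at 78.3 FPKM in GCA and 83.2 FPKM in CON, and FAS and CASP10 lie near or below 1 FPKM.

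Base composition moved with the result. Across all tested genes the log2 fold change correlated with transcript GC content (Pearson r = 0.484, across genes, which are not independent replicates). FAS had the lowest GC content of the 8 genes (39.1%), CASP8 the next (42.6%) and TNFRSF1A the highest (57.5%). TNFRSF10A and TNFRSF21 were close to each other, at 50.1% and 50.9%. A correction for GC content and gene length left TNFRSF21 (log2 0.69, adjusted p = 0.000838) and TNFRSF10A (log2 -0.49, adjusted p = 0.0063) nearly where they were. With it FAS stood at -0.26 (adjusted p = 0.198), CASP8 at -0.06 (adjusted p = 0.734), TNFRSF10D at -0.04 and TNFRSF10B at -0.44 (adjusted p = 0.0754). With the correction and the block TNFRSF10B passed (log2 -0.42, adjusted p = 0.0157). TNFRSF1A passed under the correction alone and with the block (log2 -0.36, adjusted p = 0.027 and 0.0185), and CASP10 turned to 0.14 (adjusted p = 0.646). Under the correction 3 of the 8 genes passed, against 29.2% of all genes (12.1% higher and 17.1% lower in GCA). Of the 4 original calls 2 were kept with the correction, and 3 with the correction and the block. The share of all calls kept is not given here.

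**Figure D3:**
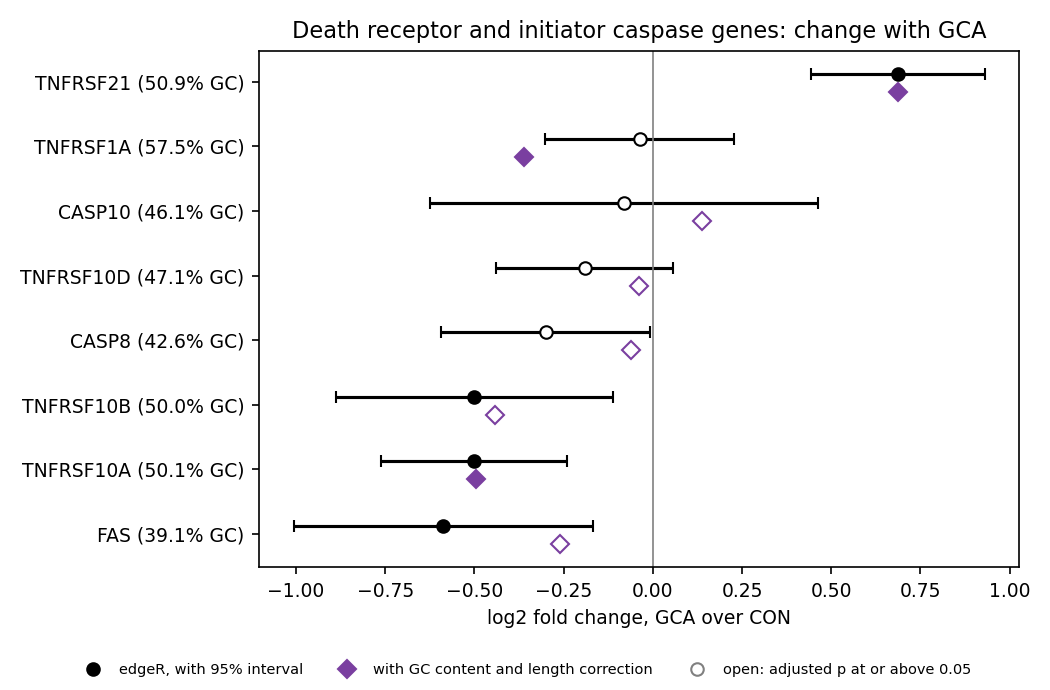
Log2 fold change of GCA over CON for each gene, labelled with its transcript GC content: circles with 95% intervals are from edgeR without a correction, diamonds from the fit with the GC content and length correction, and open symbols did not pass. TNFRSF21 (0.69) and TNFRSF10A (-0.50 and -0.49) are filled in both fits, while FAS stands at -0.59 without the correction and -0.26 with it.

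The genes with the most similar profiles over the 6 libraries were found from the root mean square difference of mean-centred log2 CPM among 11374 candidate genes. TNFRSF21 was nearest to HDAC5, CADM4 and GSN (0.0316 to 0.0419). TNFRSF10A was nearest to SLC35F2, CARS1 and ANKRD28 (0.035 to 0.0421), and FAS to ZNF250, S100PBP and PPP4R1 (0.0192 to 0.0289). TNFRSF10B was nearest to VEGFA, CD55 and VGF (0.045 to 0.0667), and CASP8 to LAP3, TFCP2 and ILF2 (0.0183 to 0.0279). For TNFRSF10D these were ARF6, QRICH2 and RPP38 (0.0317 to 0.0346), for TNFRSF1A MID1IP1, ZNF786 and CHST3 (0.0306 to 0.035), and for CASP10 CADPS2, ZNF160 and KCTD18 (0.0593 to 0.0669). The distances to other genes are not given here. Whether near profiles reflect any link between genes was not tested.

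Around these genes, 26 of 72 tested pathway genes passed (36.1%, against 36.4% of all genes), 12 higher and 14 lower. The 94 genes of these lists were chosen with earlier results known, and 91 had a row. Of all tested genes 18.3% were called higher and 18.1% lower, and each list below held at most 13 tested genes. The median log2 fold change of the tested pathway genes was 0.0013, against -0.04 over all tested genes. By list the median ran from -0.36 for caspase substrates and nucleases, and -0.31 for linear ubiquitin and deubiquitinase regulators, to 0.27 for TNF receptor genes with no death domain and 0.48 for decoy and other death-domain receptors.

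CASP6, an executioner caspase gene, had 9.85 ± 1.10 CPM in GCA and 9.42 ± 1.02 CPM in CON (SD) and did not pass (log2 fold change 0.07, 95% interval -0.30 to 0.43; adjusted p = 0.785). Its sign turned without GCA 1 (-0.013) or CON 2 (-0.011). Among other caspases CASP2 fell by 0.34 ± 0.12 (adjusted p = 0.036), and the inflammatory caspase gene CASP4 rose by 0.92 ± 0.32 (adjusted p = 0.0409), with 6.84 ± 2.73 CPM in GCA and 3.60 ± 1.35 CPM in CON. The CASP2 call was lost without GCA 2, GCA 3, CON 2 or CON 3 (adjusted p from 0.0778 to 0.141), the CASP4 call without GCA 2, GCA 3, CON 1 or CON 2 (adjusted p from 0.0729 to 0.216). With the GC content and length correction CASP2 stood at -0.24 (adjusted p = 0.0901). CASP4 stood at 0.99 with the correction, where it just missed the threshold (adjusted p = 0.0531), and passed at 0.99 with the correction and the block (adjusted p = 0.00599).

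Ligand transcripts were scarce, with at most 7 counts in a library. The ligand genes TNFSF10, TNF, LTA and TNFSF15 did not pass the filter on low counts. FASLG had no row in the counts used here and was not analysed. TNFSF10, which encodes TRAIL, had 5, 1 and 0 counts in GCA and 0 in each CON library. TNF had 0 in each GCA library and 0, 0 and 1 in CON. LTA, the lymphotoxin alpha gene, had 1 count in each GCA library and 1, 7 and 7 in CON.

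Of 4 tested decoy and other death-domain receptor genes 2 rose and the others did not pass (50% called, against 36.4% of all genes). NGFR, which encodes the neurotrophin receptor p75, had 52.2, 58.4 and 65.9 CPM in GCA against 17.9, 26.7 and 28.4 CPM in CON. All GCA libraries were above all CON libraries, and NGFR rose with a log2 fold change of 1.27 ± 0.17 (SE; adjusted p = 0.000157; 0.82 with the GC content and length correction, adjusted p = 0.00688). TNFRSF6B, which encodes a soluble decoy for FAS ligand, rose by 0.74 ± 0.18 (adjusted p = 0.00655). It stood at 0.09 with the correction (adjusted p = 0.768), and all of its exons are shared with the readthrough gene RTEL1-TNFRSF6B. TNFRSF25 did not pass (log2 0.21, adjusted p = 0.451).

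Of 13 adaptors and complex components 1 rose and 2 fell (23.1% called, against 36.4% of all genes). TRADD, the TNF receptor 1 adaptor, rose by 0.48 ± 0.15 (adjusted p = 0.0235), with 40.3 ± 2.65 CPM in GCA and 28.9 ± 6.14 CPM in CON (SD). It turned to -0.06 with the GC content and length correction, and its call was lost without GCA 1, GCA 2, GCA 3, CON 2 or CON 3 (adjusted p from 0.0524 to 0.0981). FAF1, the FAS-associated factor, had 24.4, 25.2 and 21.6 CPM in GCA against 38.3, 47.1 and 48.3 CPM in CON. The groups were far apart, and FAF1 fell by 0.91 ± 0.13 (adjusted p = 0.000307; -0.67 with the correction). CASP8AP2, which encodes a caspase-8-associated protein, fell by 0.78 ± 0.27 (adjusted p = 0.0368), a call lost with the correction and without any library other than CON 1 (adjusted p from 0.0542 to 0.173).

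FADD, the shared adaptor, had 83.6 ± 0.587 CPM in GCA and 70.0 ± 7.32 CPM in CON (log2 fold change 0.26 ± 0.12, SE; adjusted p = 0.101). It passed without CON 1 (log2 0.34, adjusted p = 0.0059), and its value under the correction was -0.12. RIPK1 had a log2 value of 0.10 (adjusted p = 0.619).

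Of 12 tested inhibitor genes 2 fell and the others did not pass (16.7% called, against 36.4% of all genes). TNFAIP8 fell by 0.57 ± 0.15 (adjusted p = 0.0124), and XIAP, an inhibitor of executioner caspases, by 0.49 ± 0.16 (adjusted p = 0.0313). With the GC content and length correction they stood at -0.29 and -0.14 and did not pass. The TNFAIP8 call was lost without GCA 2 or CON 2 (adjusted p = 0.0582 and 0.0854), and the XIAP call without any library other than CON 1 (adjusted p from 0.0594 to 0.132).

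The list of linear ubiquitin and deubiquitinase regulators was split, with 2 of 8 rising and 2 falling (50%, against 36.4% of all genes). SHARPIN and RNF31, components of the linear ubiquitin ligase, rose by 0.48 ± 0.12 and 0.44 ± 0.12 (adjusted p = 0.00878 and 0.0128). In GENCODE 29 RNF31 shares 34.8% of its exonic bases with an overlapping gene, which leaves its counts uncertain. With the correction SHARPIN turned to -0.13 and RNF31 stood at 0.05. OTULIN, which removes linear ubiquitin, fell by 0.56 ± 0.14 (adjusted p = 0.00715), and CUL3 by 0.39 ± 0.12 (adjusted p = 0.0217); with the correction they stood at -0.28 and -0.06, and neither passed. The SHARPIN call was also lost without GCA 3 (adjusted p = 0.0522), the RNF31 call without GCA 3, CON 2 or CON 3 (adjusted p from 0.0528 to 0.0667), and the CUL3 call without any library other than CON 1 (adjusted p from 0.0519 to 0.139).

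None of the 3 tested necroptosis genes, against 36.4% of all genes, passed with edgeR, and none passed with DESeq2 or limma-voom. Of these genes 0 had an unadjusted p under 0.05, and none of RIPK3's libraries had over 2 counts. Their adjusted p-values were 0.881 for MLKL, 0.151 for TICAM1 and 0.526 for PGAM5.

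Of 9 genes linking the pathway to mitochondria 1 rose and 3 fell (44.4% called, against 36.4% of all genes). APAF1, the apoptosome scaffold, fell by 0.61 ± 0.18 (adjusted p = 0.0191), CYCS, the cytochrome c gene, by 0.48 ± 0.15 (adjusted p = 0.021), and DIABLO, an antagonist of inhibitor proteins, by 0.38 ± 0.11 (adjusted p = 0.0218). With the correction DIABLO stood at -0.62 (adjusted p = 0.00296), while APAF1 (-0.31) and CYCS (-0.22) did not pass. ENDOG, a mitochondrial nuclease gene, rose by 0.57 ± 0.19 (adjusted p = 0.0304), with a value of -0.02 under the correction. The calls were lost without GCA 1, GCA 3 or CON 2 for APAF1 (adjusted p from 0.0576 to 0.111), without any GCA library for CYCS (0.0517 to 0.095), without GCA 1, GCA 3, CON 2 or CON 3 for DIABLO (0.0686 to 0.107), and without any library other than CON 1 for ENDOG (0.0605 to 0.118). Without CON 1 CYCS stood at -0.31 (adjusted p = 0.0111) and ENDOG at 0.88 (adjusted p = 4.71e-05). BID, the caspase-8 substrate that carries the signal to mitochondria, had 119 ± 7.02 CPM in GCA and 116 ± 21.8 CPM in CON (SD; log2 0.03, adjusted p = 0.888), and was picked after its values were seen.

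Of 10 caspase substrates and nucleases 2 rose and 4 fell (60% called, against 36.4% of all genes). GSDMD, which encodes the pore-forming gasdermin D, had 170, 175 and 186 CPM in GCA against 106, 84.8 and 86.1 CPM in CON. It rose by 0.94 ± 0.12 (adjusted p = 0.00017), and by 0.44 with the correction (adjusted p = 0.00557). The lamin B1 gene LMNB1 fell by 0.63 ± 0.15 (adjusted p = 0.00579; -0.54 with the correction). PAK2, a kinase gene, and DFFA, which encodes the inhibitor of the caspase-activated nuclease, fell by 0.46 ± 0.11 and 0.45 ± 0.12 (adjusted p = 0.0076 and 0.0097); neither passed with the correction (-0.16 and -0.31) or without GCA 3 (adjusted p = 0.0508 and 0.0665).

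Among TNF receptor family genes with no death domain 3 of 9 rose with edgeR, against 2 with DESeq2, and the others did not pass. The edgeR share was 33.3%, against 36.4% of all genes. TNFRSF18 rose by 0.68 ± 0.12 (adjusted p = 0.00136), LTBR, the lymphotoxin beta receptor gene, by 0.50 ± 0.12 (adjusted p = 0.00582) and TNFRSF19 by 0.90 ± 0.33 (adjusted p = 0.0457). With the correction TNFRSF18 and LTBR stood at 0.02 and 0.05 and did not pass, while TNFRSF19 stood at 1.19. TNFRSF19 passed under 7 of the 19 alternatives and not with DESeq2 (adjusted p = 0.0521). Its call was lost without any library other than CON 2 (adjusted p from 0.0832 to 0.115), and the gene averaged 1.88 CPM in GCA and 1.003 CPM in CON.

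**Figure D4:**
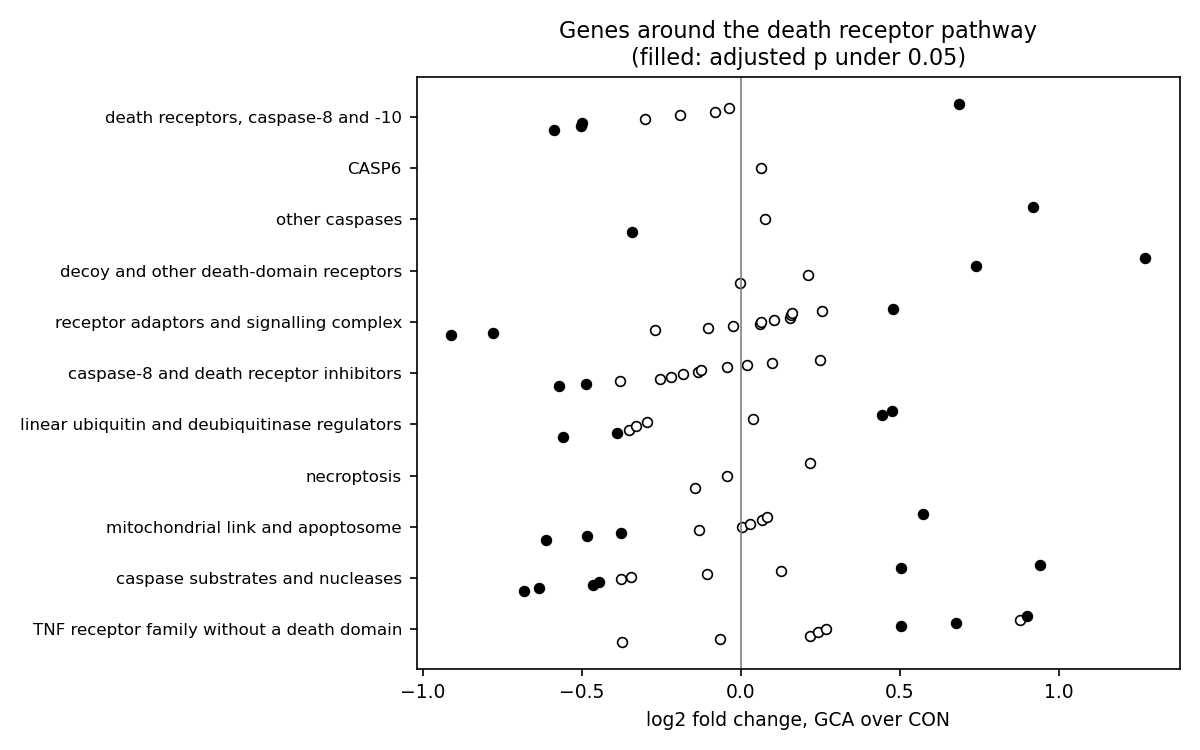
Log2 fold change of GCA over CON for each tested gene of the 8-gene set (top) and the pathway lists, filled where the adjusted p was under 0.05. The necroptosis genes have no filled point, and 26 of the 72 tested pathway genes are filled, on both sides of 0.

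Of the 28 genes named here that passed, 6 passed under each of the 19 alternatives: TNFRSF21, TNFRSF10A, NGFR, FAF1, GSDMD and LMNB1. The same share over all called genes is not given here, and the alternatives reuse the same 6 libraries. The fewest were passed by TNFRSF19 (7 of 19), TNFRSF10B and CASP8AP2 (8 each), CASP4 (9), and CUL3 and XIAP (10 each).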

How the data were processed

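RNA-seq was measured in 6 libraries, 3 labelled GCA and 3 labelled CON. The authors deposited raw counts per gene symbol and a table of FPKM values. HTSeq 0.11.2, HISAT2 2.2.1.0 and fastp 0.20.1 appear in the submitters' processing notes, with hg38 as build. The sources used here give no annotation, strand setting or filter. Per the labels, the RNA was polyA, while their protocol describes ribosomal depletion of total RNA and speaks of heart samples. The deposited FPKM values are the counts over library total and a fixed gene length (relative difference under 1e-09 in 16229 of 16229 genes), so they add no independent measurement.

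GCA was compared with CON with edgeR's quasi-likelihood test (version 4.0.16, R 4.3.3) after TMM scaling. Genes were kept by filterByExpr at a minimum count of 10 and a minimum total of 15, and p-values were adjusted by Benjamini-Hochberg over 12604 genes, with a threshold of 0.05. The standard error is the log2 fold change divided by the square root of F, and 95% intervals use the test's degrees of freedom. The procedure was tested on simulated data. It called 84% of genes set at a log2 change of 1 with the right sign, and 21% of those set at 0.5. Of unchanged genes it called 0.073%. A gene that did not pass may therefore still have changed by such an amount. The simulation changed far fewer genes than the 4584 called in the data, and it held no GC content trend and no replicate effect. Its rates therefore need not hold for the data. The alternatives used other scalings and filters, DESeq2 1.42.0, limma 3.58.1 (voom, log2(FPKM + 1) and log2(FPKM + 0.1)), the replicate number as a block, spline offsets (5 degrees of freedom) on GENCODE 29 transcript GC content (99.2% of genes had a value) and gene length, and leaving out libraries. Log2 CPM used a prior count of 2.

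Same-numbered libraries' deviations from their group means correlated across genes at 0.206, 0.137 and 0.104, all over the limit of 0.1, and differently numbered ones at -0.172 to 0.0954. The lowest value for the same number, 0.104, was close to the highest for different numbers, 0.0954. The replicate numbers of the titles may pair the libraries, but the main fit was unpaired. The block was used only among the alternatives. Within each group every pair of libraries differed by more than sampling noise (chi-square per gene 4.87 to 45.8, and 20.2 to 45.8 for pairs with replicate 1).

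The 8 genes, the gene lists and the tests were chosen with earlier results of these data known. The rule named the 8 genes, up to 4 genes with the lowest p among those past the threshold in each list, and CFLAR, FADD, TRADD, RIPK1, TNFSF10, FASLG and CASP6. Some further genes are not reported here. For each of the 8 genes it added the 3 nearest profiles among genes with a mean log2 CPM of at least 1. Coordinates and promoters are from RefSeq on GRCh38.p14. The promoter table was matched by symbol for 4 of the 8 genes.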

Additional observations from a re-analysis of the deposited data

How the results depend on the processing

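All genes past the threshold numbered 4584 over 6 libraries, 2621 to 6707 with a single library left out and 7419 without replicate 1 of both groups. Of the calls 2307 were higher and 2277 lower in GCA (50.3% higher), against 1522 and 2159 with the GC content and length correction (41.3%) and 1751 and 2654 with the correction and the block (39.8%). Of the 8 genes 4 passed (36.4% of all genes), against 2 to 5 with a single library left out. Over all genes such fits called from 2621 of 12703 to 6707 of 12740. With limma on log2(FPKM + 0.1) 2 of the 8 passed, and 4153 of all 12604 genes. Pathway calls numbered 26 of 72 tested, against 17 with the correction (29.2% of all genes) and 9 to 30 with a single library left out. The 9 were without GCA 3 and the 30 without CON 1, where all genes also had their fewest and most calls. The replicate block gave 4 calls among the 8 genes and 29 pathway calls, with 41% of all genes called, and all 28 named calls passed with it.

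FAS stood at -0.56 with limma on log2(FPKM + 0.1) (adjusted p = 0.0702), -0.26 with the correction, -0.26 with the correction and the block (adjusted p = 0.204), and -0.71 to -0.47 with a single library left out. TNFRSF10B did not pass with DESeq2's size factors (-0.48), a minimum of 1 CPM in 3 libraries (-0.47, adjusted p = 0.0556), limma-voom (-0.46), limma on log2(FPKM + 1) (-0.50, adjusted p = 0.0901) or log2(FPKM + 0.1) (-0.51, adjusted p = 0.0802) or the correction (-0.44), and ran from -0.70 to -0.27 with a single library left out. TNFRSF10B passed with the correction and the block (-0.42, adjusted p = 0.0157). TNFRSF10D passed without replicate 1 of both groups (-0.25, adjusted p = 0.0317) and ran from -0.25 to -0.13 with a single library left out. TNFRSF1A passed with the correction (-0.36) and with the correction and the block (-0.36), and ran from -0.080 to 0.040 with a single library left out. CASP10 ran from -0.24 to 0.13 and stood at 0.14 with the correction, with or without the block.

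Outside the 8 genes, the sign turned with the correction, without and with the block, for TRADD (-0.056 and -0.055), SHARPIN (-0.13 and -0.13), ENDOG (-0.018 and -0.0022), CFLAR (0.019 and 0.028) and FADD (-0.12 and -0.12). It also turned for RIPK1 without replicate 1 of both groups (-0.055). With a single library left out CASP6 ran from -0.013 to 0.13. Of 24 pathway genes named as past the threshold, 6 passed in the same direction with the correction, 15 missed it and 3 turned. The same shares over all called genes are not given here. The causes were not tested.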
